A study of Mus musculus with 18 samples.

Results

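The genes described here are 8 that serve an osteoclast in dissolving bone: Ctsk, Acp5, Car2, Slc4a2, Clcn7, Ostm1, Plekhm1 and Snx10. They encode enzymes, acid transporters, a partner subunit of such a transporter, and proteins of lysosome and endosome traffic. They were chosen by name for these roles and make up 8 of the 34745 genes in the table. All 8 passed the filter on low counts, which left 14241 genes. RNA was measured in 18 bulk libraries from mouse bone marrow-derived macrophages (BMDMs), cells grown out of the marrow of mice 4 to 8 weeks old with macrophage colony-stimulating factor (M-CSF). The titles put the libraries in 6 groups of 3, labelled KO or WT at day 0, 1 or 3. All mice were on the C57BL/6 background, the KO label stood for a Zmat1 deletion in every tissue and the WT label for Zmat1 wild-type littermates born to heterozygous parents. Day 0 cells had M-CSF alone, and the cells of days 1 and 3 had M-CSF with receptor activator of NF-κB ligand (RANKL), the cytokine that turns macrophages into osteoclasts. The labels do not say that the 3 libraries of a group came from separate mice, so p-values measure the spread between libraries, which may be technical.

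An osteoclast seals off a patch of bone and pumps acid and enzymes into the space below it through a folded membrane, the ruffled border. The acid dissolves the mineral, and the enzymes then cut the exposed collagen. Protons come from carbonic anhydrase and are moved by the vacuolar proton pump, and chloride follows through a chloride and proton exchanger of lysosomes. The bicarbonate left behind leaves the cell at the opposite face in exchange for chloride. The ruffled border itself forms when secretory lysosomes fuse with the cell surface. Loss of most of these genes in mice or humans gives osteopetrosis, in which bone is made but not removed.

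Total counts ranged from 13789775 to 17559958 per library. Levels are given as CPM, counts relative to library size after edgeR's TMM scaling, which assumes that most genes keep their level, and differences as log2 fold changes with a standard error (SE) from edgeR's quasi-likelihood test. A gene was called at a Benjamini-Hochberg adjusted p under 0.05 over all 14241 genes. Zmat1, the gene in the labels, averaged 4.35 ± 2.74, 3.99 ± 0.431 and 3.26 ± 1.30 CPM (SD, n = 3) in the libraries labelled WT at days 0, 1 and 3. In those labelled KO it averaged 5.13 ± 2.18, 5.27 ± 1.22 and 5.04 ± 0.541 CPM. It was therefore no lower under the KO label on any day, and each comparison of the labels below is one of libraries labelled KO with libraries labelled WT.

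Among marker lists for the cell types the cultures could hold, the summed level of 8 osteoclast markers was 193 to 569 CPM in the libraries labelled WT at day 0 and 7908 to 12889 CPM at day 3. In those labelled KO it was 582 to 878 CPM at day 0 and 3869 to 9064 CPM at day 3. Mmp9 made up most of the day 3 sum. Its mean was 8136 CPM of a mean sum of 10001 CPM under the WT label, and 5036 of 6351 CPM under the KO label. Calcr, the calcitonin receptor, had no count in any library of days 0 and 1. The macrophage markers (10 genes) went the other way, from 32770 to 59687 CPM at day 0 to 6784 to 14091 CPM at day 3 under the WT label, and from 36187 to 62288 to between 9270.4 and 18538 CPM under the KO label. Markers of stromal cells and osteoblasts (10 genes) rose as well, from 88.5 to 4521 CPM to between 10674 and 13817 CPM under the WT label and from 1069 to 3636 CPM to between 19153 and 28688 CPM under the KO label. Of their defining genes Bglap, made by mature osteoblasts, had no count in any library labelled WT and at most 2 counts in any labelled KO. Col1a1 averaged 5496 CPM at day 3 under the WT label. The osteoblast genes Alpl, Runx2 and Sp7 were at 12.9, 6.21 and 1.26 CPM at day 0 and 45.9, 15.6 and 5.68 CPM at day 3 under that label. Under the KO label their day 3 means were 86.8, 29.0 and 16.7 CPM. From day 0 to day 3, 7 of 8 osteoclast genes were called higher and 9 of 11 macrophage lines of the table (Itgam stands on 2) lower under each label, and 6 of 9 tested stromal or osteoblast genes were called higher under the WT label and 8 of 9 under the KO label. All 7 neutrophil genes were called lower under each label, and the sum of 5 B cell genes went from between 291 and 406 CPM at day 0 to at most 60.7 CPM at day 3. In bulk RNA, fewer cells of a type and less RNA per cell cannot be told apart. The part of these other cells in the results below was not tested.

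**Figure D1:**
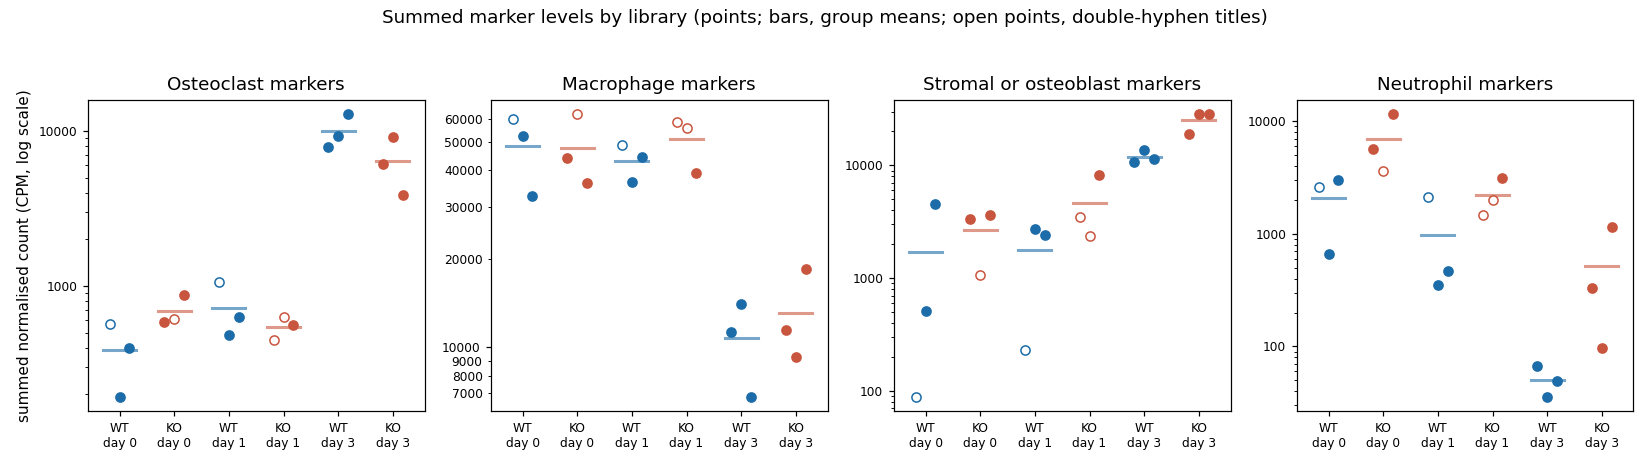
Summed TMM-scaled CPM of the marker lists in each of the 18 libraries, on a log axis, with libraries grouped by label and day. The osteoclast sum at day 3 is 7908 to 12889 CPM in the libraries labelled WT and 3869 to 9064 CPM in those labelled KO, while the stromal or osteoblast sum is 10674 to 13817 CPM and 19153 to 28688 CPM.

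The library titles touch the members. Of the 3 WT libraries of day 1, a pair is numbered 1 and none is numbered 3, and 5 titles, all of days 0 and 1, are written with a double hyphen. In a fit with the title style as a term, read after the data were seen, double-hyphen libraries were higher by 0.42 (SE 0.0923, adjusted p = 0.0062) in Clcn7, 0.35 (adjusted p = 0.0099) in Ostm1 and 0.53 (adjusted p = 0.0278) in Snx10 on the log2 scale. These were 3 of the 8 members, against 23.2% of all genes. What the style stands for is not stated.

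By deposited FPKM (fragments normalised for gene length and depth), which allow levels to be set beside each other between genes, Plekhm1 led the 8 genes before RANKL and Ctsk with Acp5 led them after 3 days. In the libraries labelled WT at day 0 the order was Plekhm1 at 63.5, Clcn7 at 42.1, Acp5 at 24.4, Ctsk at 11.4, Ostm1 at 11.3, Slc4a2 at 6.72, Snx10 at 5.20 and Car2 at 0.211 FPKM. The libraries of Acp5 and Ctsk, of Ctsk and Ostm1, and of Slc4a2 and Snx10 overlapped, and the other neighbours in that order did not. At day 3 Ctsk stood at 3716 ± 872 and Acp5 at 3116 ± 262 FPKM (SD, n = 3) with overlapping libraries, and Clcn7 followed at 68.2, Plekhm1 at 50.8, Slc4a2 at 43.7, Car2 at 25.6, Snx10 at 23.0 and Ostm1 at 17.7 FPKM. Here the libraries of Plekhm1 and Slc4a2 and of Car2 and Snx10 overlapped.

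The move of the 2 matrix enzymes was large on the scale of the whole transcriptome. Ctsk ranked 3275th and Acp5 1661st of 17818 genes with an FPKM above 0 in the day 0 libraries labelled WT, and 6th and 8th of 18378 genes at day 3. Car2 went from rank 12909 to rank 1826. In the libraries labelled KO at day 3 Ctsk stood at 2419 ± 941 and Acp5 at 2268 ± 739 FPKM, ranks 9 and 11 of 18887 genes, and Ostm1 was again the lowest of the 8, at 14.7 FPKM, with libraries that overlapped those of its neighbour Snx10. The 8 genes together held 0.101 to 0.107% of the counts in the libraries labelled WT at day 0, 0.104 to 0.114% at day 1 and 1.14 to 1.48% at day 3. In those labelled KO these shares were 0.0916 to 0.109%, 0.106 to 0.115% and 0.592 to 1.17%. Ctsk and Acp5 made up most of the day 3 shares, at 0.952 to 1.26% under the WT label and 0.480 to 1.00% under the KO label. At day 0 these 2 genes held 0.00291 to 0.00720% and 0.00841 to 0.0106%.

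The first comparison asked how 3 days of RANKL changed the resorption genes. Ctsk, Acp5, Car2, Slc4a2 and Snx10 rose under both labels, Plekhm1 fell under both, and Clcn7 and Ostm1 did not pass the test under either. Of the 8 members 5 were called higher in the libraries labelled WT, against 23.7% of all genes, and 1 lower, against 26.5%. In those labelled KO the same counts stood against 20.2% and 22.3%. The median log2 fold change of the 8 was 2.05 under the WT label and 1.76 under the KO label, against -0.03 and -0.01 over all genes tested. When libraries were scaled to their total counts instead, the all-gene median moved up by 0.36 and 0.29, and the calls shifted from 3370 higher and 3773 lower to 5153 and 2221 under the WT label and from 2873 and 3173 to 4274 and 1963 under the KO label. The 5 rises do not depend on that choice, whereas the calls of the 3 small changes do, as given with each of them.

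**Figure D2:**
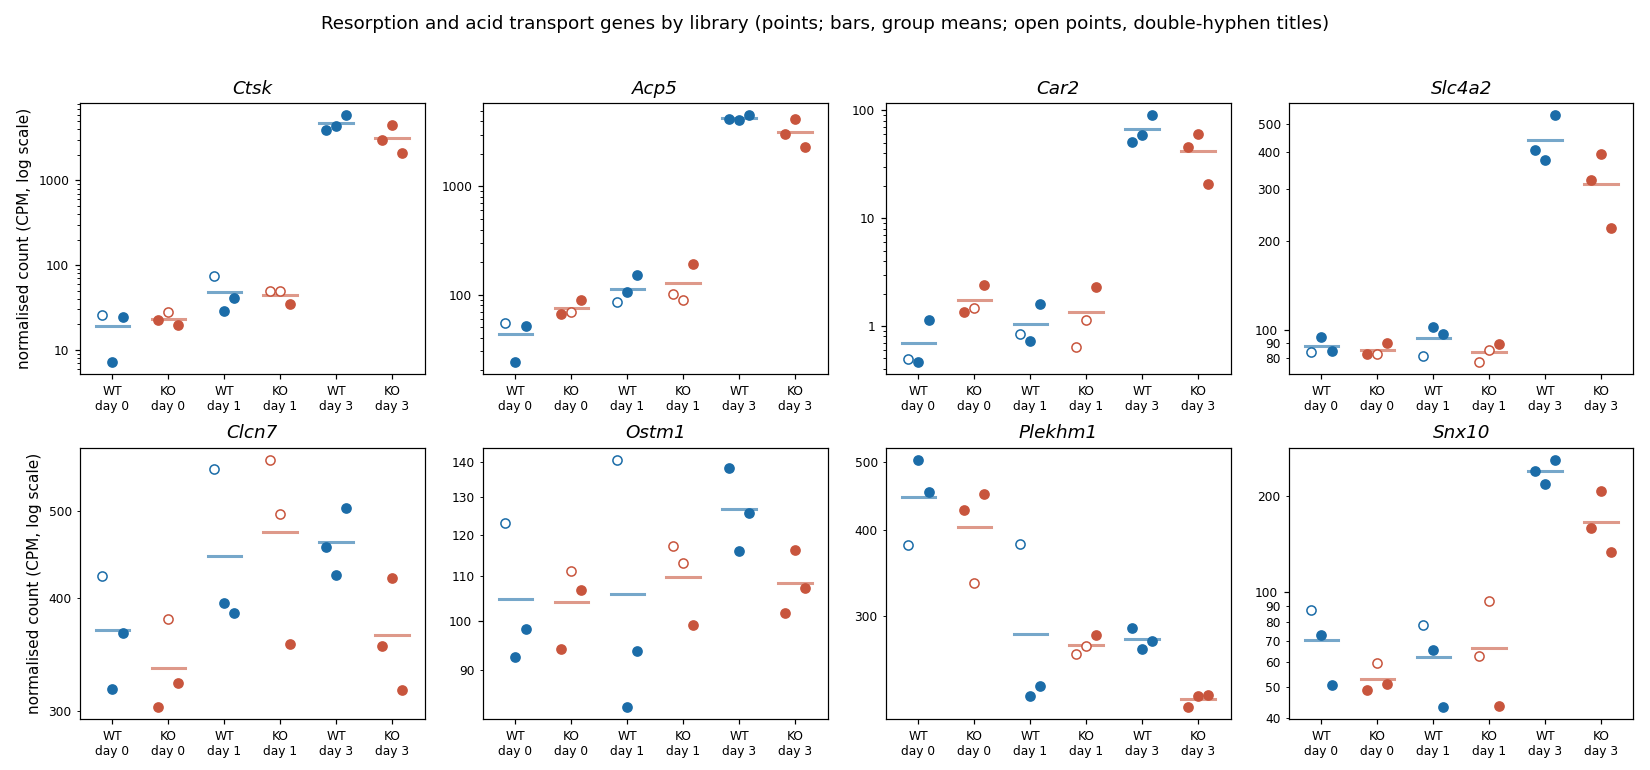
TMM-scaled CPM of the 8 genes in each of the 18 libraries, 1 panel a gene with a log axis. Points are libraries and bars are group means. Ctsk, Acp5, Car2, Slc4a2 and Snx10 step up at day 3 under both labels, while Clcn7 lies between 303 and 571 CPM and Ostm1 between 83.3 and 141 CPM in all libraries, and the mean of Plekhm1 is highest at day 0. Open points are libraries with a double hyphen in the title.

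Ctsk encodes cathepsin K, the acid protease that cuts collagen in the resorption space. The gene (ENSMUSG00000028111) lies at chr3:95499256-95509362 on the plus strand (GRCm38, as are the positions of the other members). It had 25.6, 7.20 and 24.4 CPM in the 3 libraries labelled WT at day 0, and 3974, 4436 and 5918 CPM at day 3. Under the KO label the values were 22.3, 28.0 and 19.7 CPM at day 0, and 3007, 4450.0 and 2124 CPM at day 3. Every day 3 library lay far above every day 0 library, and WT replicate 2 was the low library of day 0. The log2 fold change was 7.97 (SE 0.572, 251-fold, adjusted p = 1.3e-06) under the WT label and 7.10 (SE 0.551, 137-fold, adjusted p = 4.8e-06) under the KO label. Fibroblasts also make Ctsk, and the stromal list moved in the same direction between these days.

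Acp5 encodes tartrate-resistant acid phosphatase (TRAP), the enzyme whose stain marks osteoclasts. The gene (ENSMUSG00000001348) lies at chr9:22126731-22135746 on the minus strand. It had 54.6, 24.0 and 51.6 CPM in the day 0 libraries labelled WT, and 4158, 4099.8 and 4573 CPM at day 3. Under the KO label it had 66.1, 70.0 and 89.9 CPM at day 0 and 3066, 4220.3 and 2300.4 CPM at day 3. The day 3 libraries labelled WT lay close together and those labelled KO spread wider. The rise was 6.62 (SE 0.439, 98.5-fold) under the WT label and 5.41 (SE 0.414, 42.4-fold) under the KO label on the log2 scale, with adjusted p = 1.1e-06 and 4.8e-06.

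Car2 encodes carbonic anhydrase II, which makes protons and bicarbonate from carbon dioxide and water. The gene (ENSMUSG00000027562) lies at chr3:14886273-14900770 on the plus strand. It was barely counted before RANKL, with 6, 6 and 16 counts in the day 0 libraries labelled WT and 19, 19 and 33 in those labelled KO. At day 3 the libraries labelled WT held 976, 998 and 1615 counts (50.4, 58.7 and 90.6 CPM) and those labelled KO 764, 986 and 368 counts (45.5, 60.3 and 20.9 CPM). No day 3 library came near the day 0 range, and KO replicate 3 was the lowest of day 3. The log2 fold change was 6.53 (SE 0.575, 92.6-fold, adjusted p = 3.8e-06) under the WT label and 4.59 (SE 0.512, 24.1-fold, adjusted p = 3.2e-05) under the KO label. Red cells also make Car2. The summed level of 9 erythroid markers was 0.513 to 25.1 CPM over all libraries, and Slc4a1 and Alas2 had no count in any library. The sum split by title style, at 0.513 to 1.98 CPM in the double-hyphen libraries and 15.6 to 25.1 CPM in the single-hyphen ones. At day 3, where all titles have a single hyphen, it was 15.6 to 18.6 CPM under the WT label and 16.4 to 18.05 CPM under the KO label.

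Slc4a2 encodes the chloride and bicarbonate exchanger AE2 of the face away from bone. The gene (ENSMUSG00000028962) lies at chr5:24423837-24440950 on the plus strand. It had 84.1, 94.0 and 84.6 CPM in the day 0 libraries labelled WT and 409, 378 and 536 CPM at day 3. Under the KO label it had 82.6, 82.3 and 90.1 CPM at day 0 and 321, 396 and 221 CPM at day 3. The day 0 libraries of both labels were close to each other and well below every library of day 3. Slc4a2 rose by 2.33 (SE 0.188, 5.04-fold, adjusted p = 2.2e-06) under the WT label and by 1.88 (SE 0.185, 3.68-fold, adjusted p = 1.7e-05) under the KO label on the log2 scale. Its 3′ end overlaps Fastk on the opposite strand, and whether the counting used strand is not stated in the sources used here.

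Clcn7 encodes the chloride and proton exchanger of lysosomes and the ruffled border, and Ostm1 its partner subunit, without which the exchanger is unstable. Clcn7 (ENSMUSG00000036636) lies at chr17:25133391-25162104 and Ostm1 (ENSMUSG00000038280) at chr10:42583822-42702459, both on the plus strand. Clcn7 had 424, 317 and 366 CPM in the day 0 libraries labelled WT and 457, 425 and 504 CPM at day 3. Its log2 difference was 0.32 (SE 0.194, adjusted p = 0.174) under the WT label and 0.12 (adjusted p = 0.633) under the KO label. Ostm1 had 123, 92.6 and 98.2 CPM at day 0 and 138, 116 and 126 CPM at day 3 under the WT label, a difference of 0.28 (SE 0.169, adjusted p = 0.1803), and 0.06 (adjusted p = 0.796) under the KO label. In CPM the day 0 and day 3 libraries of Ostm1 overlapped. Those of Clcn7 labelled WT were separated by a margin smaller than the spread within either day. In deposited FPKM the days did not overlap for either gene under either label. Under the WT label Clcn7 had 37.1 to 45.5 FPKM at day 0 and 61.2 to 76.1 FPKM at day 3. Ostm1 had 10.3 to 12.5 and 15.8 to 19.3 FPKM. Each gene was called in 5 of 18 alternative settings under the WT label and in 3 of 18 under the KO label. With total count scaling both pairs of differences passed the test: Clcn7 by 0.70 (adjusted p = 0.00186) and 0.42 (adjusted p = 0.0354), and Ostm1 by 0.65 (adjusted p = 0.000614) and 0.35 (adjusted p = 0.0279), under the WT and KO labels. They also passed under the WT label in the fit with title style as a term, at 0.47 (adjusted p = 0.0068) for Clcn7 and 0.40 (adjusted p = 0.0108) for Ostm1. Ostm1 overlaps Gm15200 on the opposite strand.

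Plekhm1 encodes an adaptor that brings lysosomes to fusion through the small GTPase Rab7, and it was the only one of the 8 to fall. The gene (ENSMUSG00000034247) lies at chr11:103364275-103412687 on the minus strand. The libraries labelled WT had 380.0, 504 and 454 CPM at day 0 and 288, 269 and 276 CPM at day 3. Those labelled KO had 427, 335 and 450.1 CPM at day 0 and 222, 230.0 and 231 CPM at day 3. The days did not overlap under either label, and the day 3 libraries were tight. The log2 fold change was -0.68 (SE 0.175, adjusted p = 0.0053) under the WT label and -0.83 (SE 0.175, adjusted p = 0.0022) under the KO label. With total count scaling the WT value was -0.32 and missed the test (adjusted p = 0.127), whereas the fall under the KO label stayed called. Plekhm1 overlaps Arhgap27os1 on the opposite strand.

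Snx10 encodes a sorting nexin of endosomes that osteoclasts need for a ruffled border. The gene (ENSMUSG00000038301) lies at chr6:51523901-51590679 on the plus strand. It had 87.6, 73.0 and 50.7 CPM in the day 0 libraries labelled WT and 240.2, 218 and 260.4 CPM at day 3. Under the KO label it had 48.8, 59.4 and 51.0 CPM at day 0 and 158, 208 and 133 CPM at day 3. The days did not overlap under either label. Snx10 rose by 1.77 (SE 0.281, 3.40-fold, adjusted p = 0.00019) under the WT label and by 1.65 (SE 0.281, 3.14-fold, adjusted p = 0.0005) under the KO label on the log2 scale.

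**Figure D3:**
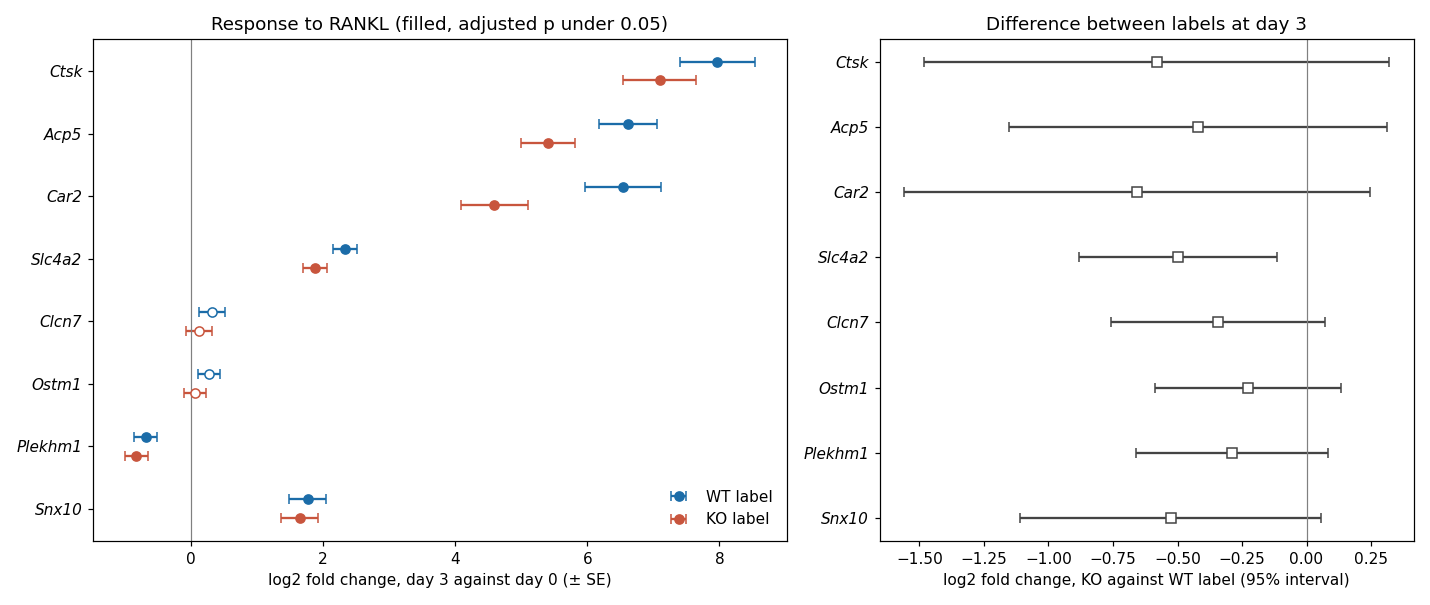
Log2 fold changes of the 8 genes from edgeR's fit. The left panel gives RANKL day 3 against day 0 under each label with bars of 1 SE and filled points for called genes, and the right panel the libraries labelled KO against those labelled WT at day 3 with 95% intervals. Ctsk, Acp5 and Car2 lie at 4.59 or more for RANKL, Clcn7 and Ostm1 lie near 0 as open points, and at day 3 the differences between the labels are all below 0 with an interval that leaves out 0 only for Slc4a2.

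After 1 day of RANKL none of the 8 genes was called under either label, against 2.35% of all genes under the WT label and 0.0211% (3 genes) under the KO label. At an unadjusted p under 0.05 there were 3 members under the WT label, against 20.5% of all genes, and 4 under the KO label, against 10.2%. Acp5 had 86.2, 106 and 151 CPM in the day 1 libraries labelled WT, all above those of day 0, with a log2 difference of 1.40 (SE 0.352, adjusted p = 0.0522). Ctsk had 73.7, 28.4 and 40.5 CPM, also all above day 0 (2 of 8 members, against 8.46% of all genes higher without overlap), with a difference of 1.32 (SE 0.435, adjusted p = 0.108). Plekhm1 had 381, 230.2 and 238 CPM, a difference of -0.66 (SE 0.175, adjusted p = 0.060), and its highest library overlapped day 0. DESeq2's Wald test called these 3 genes under the WT label and none under the KO label. The share of all genes called by that test is not given here, so these counts stand without a background. Without the double-hyphen WT library of day 1, Acp5 at 1.57 (adjusted p = 0.0197) and Plekhm1 at -0.92 (adjusted p = 0.0034) were called by edgeR. Under the KO label the 4 genes were Ctsk at 0.93 (adjusted p = 0.484), Acp5 at 0.76 (adjusted p = 0.481), Clcn7 at 0.50 (adjusted p = 0.405) and Plekhm1 at -0.57 (adjusted p = 0.295). By the threshold the study used between the labels, an unadjusted p under 0.05 with a fold above 1.5 or below 0.66, 3 members passed under the WT label, against 11.2% of all genes, and 2 under the KO label, against 5.05%.

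Between days 1 and 3 the same 5 members that rose from day 0 were called higher under both labels, against 12.7% of all genes under the WT label and 12.5% under the KO label, and none was called lower, against 19.3% and 15.5%. The log2 fold changes under the WT label were 6.65 for Ctsk, 5.23 for Acp5, 5.98 for Car2, 2.24 for Slc4a2 and 1.94 for Snx10. Under the KO label they were 6.17, 4.65, 4.95, 1.90 and 1.32 in the same order. Car2 under the KO label came to 5.60 without KO replicate 3 of day 1, a change of more than 1.5 times in the fold. The day 3 against day 1 differences of Plekhm1 were -0.03 (adjusted p = 0.921) and -0.26 (adjusted p = 0.272) under the WT and KO labels.

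The start sites of the members that rose can be set beside each other. Promoter windows of 250 bases before and 50 bases from each annotated start site were read from RefSeq (GRCm38.p6). There were 13 windows for 7 of the 8 genes and none for Car2. They were searched on both strands for the letters GGAAA (core of the sites of NFATc1, the main transcription factor of osteoclasts), GAGGAA (core of PU.1 sites), TGANTCA (AP-1) and the E-boxes CACGTG and CATGTG (bound by the MITF and TFE family). The first windows of Ctsk, Acp5 and Slc4a2, which rose, and of Clcn7, which did not pass the test, are printed 5′ to 3′ on the strand of the gene, with every match in capitals, so that the layout of these letters can be compared. They are the windows at chr3:95498960-95499259 (plus strand) for Ctsk, chr9:22130549-22130848 (minus) for Acp5, chr5:24424982-24425281 (plus) for Slc4a2 and chr17:25133141-25133440 (plus) for Clcn7. Windows were numbered by position on the chromosome. For Acp5, on the minus strand, the first of 3 windows is therefore the most downstream, and for the plus-strand genes the first is the most upstream.
Ctsk: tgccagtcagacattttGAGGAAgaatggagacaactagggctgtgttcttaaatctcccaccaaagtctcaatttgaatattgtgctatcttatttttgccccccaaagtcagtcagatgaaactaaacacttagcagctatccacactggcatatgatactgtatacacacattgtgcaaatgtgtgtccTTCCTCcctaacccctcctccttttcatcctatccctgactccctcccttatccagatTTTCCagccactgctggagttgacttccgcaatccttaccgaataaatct
Acp5: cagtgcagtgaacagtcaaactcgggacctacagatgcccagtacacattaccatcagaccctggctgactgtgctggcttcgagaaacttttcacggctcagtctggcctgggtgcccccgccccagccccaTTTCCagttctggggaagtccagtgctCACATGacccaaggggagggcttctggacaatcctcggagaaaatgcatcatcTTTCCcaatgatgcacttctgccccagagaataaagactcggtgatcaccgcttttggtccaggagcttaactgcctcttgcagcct
Slc4a2: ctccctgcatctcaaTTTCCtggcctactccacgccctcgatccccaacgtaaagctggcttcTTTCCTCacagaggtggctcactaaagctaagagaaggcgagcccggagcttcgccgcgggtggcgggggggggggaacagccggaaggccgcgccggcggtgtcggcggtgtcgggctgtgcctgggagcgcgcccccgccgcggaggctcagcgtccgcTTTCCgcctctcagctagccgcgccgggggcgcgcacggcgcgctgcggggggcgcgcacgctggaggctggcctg
Clcn7: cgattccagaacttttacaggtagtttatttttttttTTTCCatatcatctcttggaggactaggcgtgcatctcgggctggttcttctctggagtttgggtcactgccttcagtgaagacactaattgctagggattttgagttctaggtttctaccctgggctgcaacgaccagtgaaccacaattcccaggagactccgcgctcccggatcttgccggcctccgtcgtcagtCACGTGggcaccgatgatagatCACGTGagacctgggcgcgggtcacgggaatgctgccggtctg

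GGAAA, read on either strand (TTTCC on the printed one), was in a window of 5 of the 7 genes (Ctsk, Acp5, Clcn7, Snx10 and Slc4a2) and in 9 of the 13 windows, against 64.4% of 27025 genes and 61.3% of 32851 windows. Slc4a2 had 3 copies in its first window, with first bases at -235, -187 and -26 from the start site, and Acp5 had 2, at -117 and -37. GAGGAA was in Ctsk, Snx10 and Slc4a2, against 31.3% of genes, and overlapped a GGAAA match in 1 window each of Snx10 and Slc4a2. TGANTCA was in Snx10 alone, against 8.97%, and CATGTG in Acp5 and Clcn7, against 15.9%. CACGTG was in Clcn7 alone, against 8.09% of genes, with 2 copies in the first window at -15 and 8. No window of Ostm1 or Plekhm1 held any of the 5. GGAAA was thus about as common in the members as in all genes, and it was in Clcn7 as well as in genes that rose.

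The comparison of the labels asked whether the libraries labelled KO differed in these genes. At day 3 all 8 genes were lower in the libraries labelled KO than in those labelled WT, and none passed edgeR's test or DESeq2's, against 0.14% (20 genes) of all genes in edgeR. The median difference of the 8 was -0.46 on the log2 scale, against 0.02 over all genes tested. At an unadjusted p under 0.05 there was 1 member, Slc4a2, against 10.7% of all genes. Slc4a2 differed by -0.50 (SE 0.1795, 95% interval -0.88 to -0.11, adjusted p = 0.356), and its libraries of 409, 378 and 536 CPM under the WT label overlapped those of 321, 396 and 221 CPM under the KO label. Clcn7, Plekhm1 and Snx10 had day 3 libraries that did not overlap between the labels, 3 of 8 members, against 13.3% of all genes lower without overlap.

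Car2 and Ctsk had the widest intervals, followed by Acp5. Ctsk differed by -0.58 (SE 0.422, interval -1.48 to 0.32, adjusted p = 0.651), Acp5 by -0.42 (SE 0.343, interval -1.15 to 0.31, adjusted p = 0.693) and Car2 by -0.66 (SE 0.423, interval -1.56 to 0.25, adjusted p = 0.613). The intervals include 0, and each reaches below -1. For the genes with tighter libraries the difference was -0.34 (interval -0.76 to 0.07, adjusted p = 0.551) in Clcn7, -0.23 (-0.59 to 0.13, adjusted p = 0.66) in Ostm1, -0.29 (-0.66 to 0.08, adjusted p = 0.585) in Plekhm1 and -0.53 (-1.11 to 0.06, adjusted p = 0.518) in Snx10.

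Single libraries moved the size of these differences more in some genes than in others. With 1 library left out at a time, Plekhm1 ranged from -0.31 to -0.26 and Ostm1 from -0.29 to -0.16. Clcn7 ranged from -0.46 to -0.25 and Snx10 from -0.72 to -0.39. Among the 6 libraries of day 3, KO replicate 3 was the lowest for 6 of the 8 genes and WT replicate 3 the highest for 6 of the 8, and KO replicate 2 was the highest of its group for 7 of the 8. Without KO replicate 3 the differences of Ctsk, Acp5, Car2 and Slc4a2 were -0.36, -0.23, -0.33 and -0.30, and without KO replicate 2 they were -0.90, -0.67, -1.004 and -0.70. The marker sums moved with the same libraries. The osteoclast sum was 7908, 9206 and 12889 CPM in WT replicates 1, 2 and 3 and 6122, 9064 and 3869 CPM in KO replicates 1, 2 and 3. The macrophage sum was 11282, 14091 and 6784 CPM and 11488, 9270.4 and 18538 CPM in the same order. KO replicate 3 thus had the highest macrophage sum and the lowest osteoclast sum. Lyz2 made up most of the macrophage sum. Its day 3 mean was 6460 CPM of a mean sum of 10719 CPM under the WT label, and 8958 of 13099 CPM under the KO label. The stromal or osteoblast sum was 10674, 13817 and 11358 CPM against 19153, 28492 and 28688 CPM, and the neutrophil sum 66.6, 35.6 and 49.7 CPM against 332, 97.3 and 1142 CPM, with no overlap between the labels in either. The part of these cells in the differences was not tested.

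**Figure D4:**
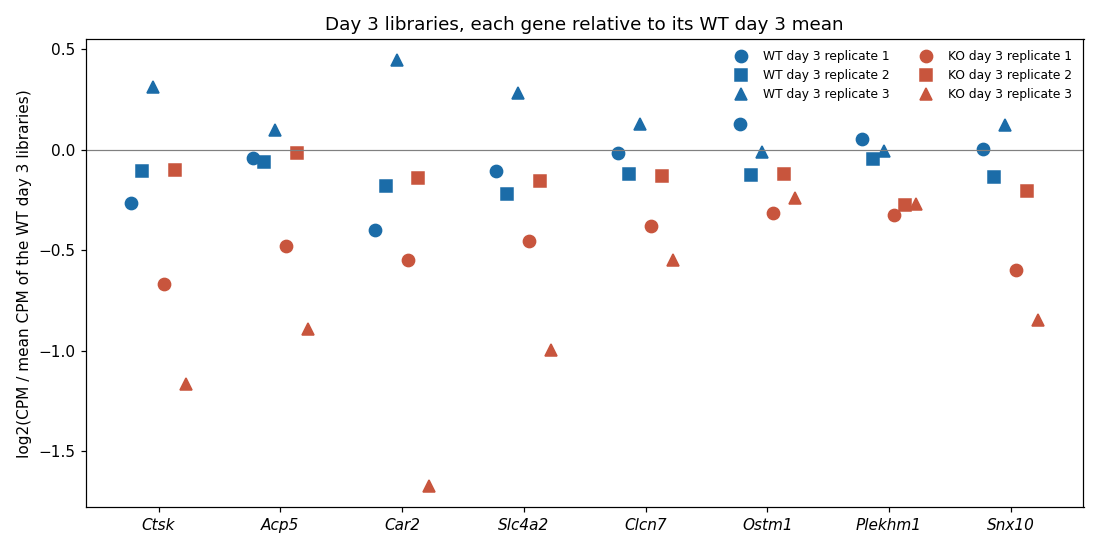
Log2 ratio of CPM in each of the 6 day 3 libraries to the mean of the 3 labelled WT, for each of the 8 genes. Points are libraries, with colour for the label and shape for the replicate number. KO replicate 3 lies lowest for 6 of the 8 genes and WT replicate 3 highest for 6 of the 8, and KO replicate 2 lies among the libraries labelled WT for Ctsk, Acp5, Car2 and Slc4a2.

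Before RANKL the direction was the other way for Acp5, Car2 and Ctsk. For Ctsk the difference was 0.29 (SE 0.431, adjusted p = 0.914), with libraries that overlapped between the labels. Acp5 stood higher in the libraries labelled KO at day 0 by 0.80 (SE 0.348, adjusted p = 0.637) and Car2 by 1.28 (SE 0.572, adjusted p = 0.645). Both had libraries that did not overlap between the labels, 2 of 8 members, against 4.9% of all genes higher without overlap. None of the 8 passed edgeR's test, against 0.119% (17 genes), or DESeq2's. These 2 were the members at an unadjusted p under 0.05, against 7.59% of all genes, and they passed the threshold of the study, against 3.95% of all genes. At most 33 counts of Car2 stood behind any day 0 library. Beside them the osteoclast sum did not overlap either, at 582 to 878 CPM under the KO label and 193 to 569 CPM under the WT label. Most of that gap lay in Mmp9, with means of 352 CPM under the KO label and 124 CPM under the WT label. Atp6v0d2 (197 and 135 CPM) and Itgb3 (48.3 and 17.0 CPM) went the same way, and Nfatc1 (94.1 and 111 CPM) the other. Dcstamp, Ocstamp and Oscar averaged at most 0.843 CPM. The neutrophil sum was 3642 to 11680 CPM under the KO label against 660 to 3002 CPM. At day 1 no member passed edgeR's test, against 0.112% (16 genes), DESeq2's test, an unadjusted p under 0.05, against 7.9%, or the threshold of the study, against 4.7%. Over the mean of the 3 days none passed edgeR's or DESeq2's test, against 1.59% (226 genes) in edgeR, and 1 had an unadjusted p under 0.05, against 18.4%.

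The test of the difference between the labels in the response to 3 days of RANKL called none of the 14241 genes (0%), with 769 genes at an unadjusted p under 0.05 (5.4%). All 8 members had a negative value. Car2 had -1.94 (SE 0.712, unadjusted p = 0.0159) and Acp5 -1.22 (SE 0.489, unadjusted p = 0.0253), both with adjusted p = 0.910, and Ctsk had -0.87 (unadjusted p = 0.169) and Slc4a2 -0.45 (unadjusted p = 0.0949). Car2 and Acp5 passed the threshold of the study, 2 of 8 members, against 3.39% of all genes. These values share the day 0 and day 3 libraries with the differences above and hold no further samples. For Car2 the values were 0.701 ± 0.384 CPM (SD, n = 3) at day 0 and 66.6 ± 21.2 CPM at day 3 under the WT label, and 1.74 ± 0.577 and 42.2 ± 19.9 CPM under the KO label. For the response to 1 day of RANKL edgeR called 0 genes, with 527 (3.7%), none of them a member, at an unadjusted p under 0.05. DESeq2 called none of the 8 in either difference of responses.

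The genes whose pattern over the 18 libraries was most like that of each member were found by the root mean square (RMS) difference of log2 CPM, each gene centred on its own mean, among 9305 genes. For Ctsk they were Siglec15 (RMS 0.706), Acp5 (0.866) and Oscar (0.887), for Acp5 they were Car2 (0.558), Spns2 (0.596) and Myo1d (0.728), and for Car2 they were Acp5 (0.558), Myo1d (0.622) and Mmp9 (0.628). Acp5 was in the lists of both Ctsk and Car2, beside Siglec15 and Oscar, surface receptors of the osteoclast lineage, and Mmp9, a gelatinase. Slc4a2 lay closest to Ank (0.154), a pyrophosphate transporter, Nfatc1 (0.156) and Slc39a13 (0.223), and Snx10 to Prdm1 (0.297), Lnx2 (0.301) and Firre (0.309). Clcn7 lay closest to Abr (0.142), Atp6ap1 (0.174), an accessory subunit of the proton pump, and Arl8b (0.175), a lysosomal GTPase. Ostm1 lay closest to Golph3 (0.102), Arih1 (0.113) and Abcd3 (0.120), and Plekhm1 to Kansl1l (0.163), Gba2 (0.168) and Dnajb14 (0.170). Clcn7 and its partner Ostm1 differed by 0.198, which put Ostm1 27th from Clcn7 and Clcn7 252nd from Ostm1. A small RMS is easier to reach for a gene that varies little, so the values order genes within a member and not between members.

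Around the members, other genes of acid secretion and lysosomes were read from lists chosen by function. Their counts from day 0 to day 3 stand beside 23.7% of all genes called higher and 26.5% called lower under the WT label, and 20.2% and 22.3% under the KO label. Scaled to total counts, these shares were 36.2% and 15.6%, and 30.0% and 13.8%. Of 11 partners in acid secretion, 5 rose and 1 fell from day 0 to day 3 under the WT label, with a median log2 fold change of 0.77, and 2 rose and 2 fell under the KO label, with a median of 0.41. Scaled to total counts, 6 rose and 1 fell under each label. The vacuolar pump subunits Atp6v1b2 (1.41, from 517 to 1369 CPM) and Atp6v1c1 (1.21, from 141 to 326 CPM) rose under the WT label, and Slc9a9, an endosomal sodium and proton exchanger, fell (-2.66, from 396 to 62.5 CPM). Of 6 other genes of matrix breakdown 3 rose and none fell under the WT label, and 4 rose and 1 fell under the KO label, with medians of 1.45 and 2.59. Mmp9 went from 124 to 8136 CPM (6.04) and Mmp14, a membrane-bound collagenase, from 67.8 to 770.4 CPM (3.51) under the WT label.

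Of 21 tested genes of ruffled border and lysosome traffic, 2 rose and 12 fell under the WT label, against 23.7% higher and 26.5% lower over all genes. In the libraries labelled KO 2 rose and 11 fell, against 20.2% and 22.3%, and the medians were -0.47 and -0.43. With total count scaling these were 5 up and 8 down, and 4 up and 8 down, under the WT and KO labels. Rab38 (2.65, from 3.36 to 21.2 CPM) and Fam98a (1.12) rose under the WT label. Rab44 (-4.79, from 15.1 to 0.544 CPM) and Rab27a (-2.83, from 13.3 to 1.85 CPM), a GTPase of secretory granules, fell. Under the KO label Rab44 and Rab27a averaged 59.5 and 37.1 CPM at day 0. The 7 neutrophil genes were called lower between these days as well, and the part of neutrophils in these 2 falls was not tested. Of 6 genes that sort enzymes to lysosomes 3 rose and 2 fell under the WT label and 2 rose and 3 fell under the KO label, with medians of -0.01 and -0.19. Scaled to total counts, 3 rose and 2 fell under each label, and the medians were 0.36 and 0.11. Gnptab, which makes the mannose 6-phosphate tag (2.497, from 57.7 to 326 CPM), and Igf2r, a receptor for that tag (1.66, from 168 to 529.7 CPM), rose, and Scarb2, which carries glucocerebrosidase (-2.26, from 413 to 86.2 CPM), and Gnptg (-0.84), a subunit of the enzyme of Gnptab, fell under the WT label.

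Of 50 tested relatives of the members in the same gene families, 5 rose and 20 fell under the WT label, with a median of -0.36, against 23.7% higher and 26.5% lower over all genes. In the libraries labelled KO 6 rose and 20 fell, with a median of -0.30, against 20.2% and 22.3%. With total count scaling these were 11 up and 14 down, and 8 up and 14 down. Ctsb, the cathepsin of macrophage lysosomes, fell from 23490.3 to 5159 CPM (-2.19) and Snx5 from 716 to 189 CPM (-1.92) under the WT label, the reverse of Ctsk and Snx10. Slc4a3, which encodes the related anion exchanger AE3, rose from 1.40 to 10.2 CPM (2.85), and Car8, a carbonic anhydrase relative without enzyme activity, was called higher at 1.17 CPM against 0.0735 CPM. Of 8 regulators of these genes 3 rose and 2 fell under the WT label and 2 rose and 2 fell under the KO label, with medians of 0.05 and -0.39, counts near the shares over all genes (23.7% and 26.5%, and 20.2% and 22.3%). The medians scaled to total counts were 0.42 and -0.09. Ppargc1b, a coactivator of mitochondrial genes (3.82, from 3.00 to 42.3 CPM), and Fos (2.53, from 31.2 to 181 CPM) rose, and Tfeb (-1.40, from 69.3 to 26.2 CPM) and Tfe3 (-1.18, from 233 to 103 CPM), transcription factors of lysosomal genes, fell. Between the labels no gene of any of these lists was called at day 3, or in the difference in response. Over the mean of the 3 days 1 relative was called, Snx18 (0.39, SE 0.0722, adjusted p = 0.0196). Of the marker lists, 3 of 7 neutrophil, 1 of 9 tested stromal or osteoblast and 1 of 5 B cell genes were called higher under the KO label over that mean. Of all genes 1.14% were called higher there. No osteoclast, macrophage or erythroid marker was called.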

How the data were processed

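RNA was measured in 18 libraries. Per the labels, RNA was taken with a column kit and mRNA libraries were made with a SMARTer kit. The submitters' processing notes name the builds GRCm38.p4 and mm10. The authors deposited 1 table with whole-number read counts and FPKM per gene, the deposited FPKM having been computed with StringTie and Ballgown. The aligner, the counting program and its use of strand are not given in the sources used here. Table columns with no sample numbered 0. PCR copies were not told apart from molecules.

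Genes passing edgeR's filterByExpr were TMM-scaled and fitted with edgeR 4.0.16 (quasi-likelihood, R 4.3.3) over all libraries as 6 groups. P-values are 2-sided with Benjamini-Hochberg adjustment over the 14241 genes of a comparison. The common dispersion was 0.09451. Intervals are 95% intervals of the fit. The fit was tested on simulated counts with known changes in the WT day 3 group. Of those it recovered 46 of 100 2-fold and 65 of 99 4-fold changes, and it called 6 of 13763 unchanged genes. A difference that was not called may therefore still exist. Far fewer genes were changed in the simulation than were called in the data for RANKL day 3. The FPKM were used for order and rank, and in limma 3.58.1 as log2(FPKM + 1) and log2(FPKM + 0.1). Other alternatives were filters, DESeq2 1.42.0 size factors and Wald test, total counts, only the groups compared, title style as a covariate, a replicate block, the summed pair of WT day 1 libraries numbered 1, each library left out, the threshold of the study between the labels, and, chosen after seeing the data, only the single-hyphen libraries and the threshold of the study in the other comparisons. That pair differed by more (chi-square of 175.8 per gene) than either did from the third library (29.89 and 123.5), and was kept as 2 samples.

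The replicate numbers were checked for pairing by the correlation of deviations from the group means. Same-number libraries labelled KO correlated by 0.13 to 0.398 between days 0 and 3 and those labelled WT by -0.023 to 0.111, and between the labels within a day by -0.393 to 0.321, so the numbers pair libraries over these days under the KO label by the rule that every pair exceeds 0.1, and not under the WT label or between the labels. Between days 0 and 1 the same-number libraries labelled KO correlated by 0.0536 to 0.598, so that rule was not met there. The double-hyphen WT replicate 1 of day 0 correlated by 0.604 with the double-hyphen library numbered 1 of day 1. With the single-hyphen one it correlated by -0.464. A block over all libraries and 1 within each label were fitted as alternatives. The members, the lists and the tests were chosen with earlier results of these data known. Genes named were the 8 members, Zmat1, up to 2 called genes in each direction with the largest fold changes under the WT label from each list, of those above 1 CPM in the higher group, and the 3 genes with the nearest pattern to each member with a mean above 10 CPM. Other genes (the markers Calcr, Atp6v0d2, Itgb3, Dcstamp, Ocstamp, Lyz2, Bglap, Col1a1, Alpl, Runx2, Sp7, Slc4a1 and Alas2, the overlapping genes and Snx18) were named after their values were seen. Promoter windows came from RefSeq, and gene positions from the table. Sequence reads were not analysed here.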

Additional observations from a re-analysis of the deposited data

How the results depend on the processing

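The 6 members called for RANKL day 3 against day 0 under each label, the 5 between days 1 and 3 and the 0 between the labels kept their number within 1.5 times under each alternative run, except that 2 members passed the threshold of the study between the labels at day 0. That threshold also took the count from 0 to 2 for the difference in response to 3 days of RANKL and to 2 for 1 day of RANKL under the KO label. The count called after 1 day of RANKL under the WT label, 0, became 1 with the stricter filter, 2 with the summed pair of libraries numbered 1, 2 with only the single-hyphen libraries, 3 with a term for title style, 3 by the threshold of the study and 3 with the DESeq2 Wald test, and 0 to 2 when 1 library was left out. Only for the threshold of the study is the share over all genes given here (11.2%), so the other counts stand without a background. The cause of these changes in count was not tested. A replicate block, over all libraries or within each label, changed no call of a member given here: 6 and 6 for RANKL day 3, 5 and 5 between days 1 and 3. In limma on log2(FPKM + 1) the value of Car2 for RANKL day 3 was 4.42 under the WT label and 3.34 under the KO label, since the pseudocount exceeds its day 0 level. With only the single-hyphen libraries the value between days 1 and 3 under the KO label was 4.24 for Car2 and 1.97 for Snx10. Of 868 values of members under other settings, 835 kept direction and side of the threshold, 30 passed it only there, 3 (Plekhm1 under the WT label) missed it only there and 0 changed sign. A further 49 differences, none of them over 0.3875 where the sign changed, are not given singly. The depth limits Car2 at day 0, with as few as 6 counts a library.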
